A study of Caenorhabditis elegans with 2 samples.

Results

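The regions described here are the autosomal intronic peaks of NHR-47 in first-stage (L1) larvae of the nematode Caenorhabditis elegans. They are 910 of the 5357 peaks (16.99%, 95% Wilson interval 16.01 to 18.02%) in the authors' thresholded list on the ce11 build (WBcel235). Each has its summit, the position of highest signal, on an autosome, within a protein-coding gene of the Ensembl annotation but in no protein-coding exon. The summit also lies outside all promoter windows, which reach 500 bp upstream and 200 bp downstream around the 5′ ends of protein-coding genes, and outside the like windows of tRNA genes. The peaks came from chromatin immunoprecipitation with sequencing (ChIP-seq), which recovers the DNA fragments held by a chosen protein. Worms of strain OP481, genotype unc-119(tm4063) III; wgIs481, stably expressed NHR-47 fused at its C-terminus to GFP and FLAG, and the immunoprecipitation used an antibody against GFP. Hermaphrodites were hatched after bleaching, held starved as L1 larvae and collected whole at 6 h post synchronization, as 2 biological replicates of 1 group. No other genotype, treatment or time entered, and whether the tagged protein replaced the endogenous one is not given in the sources used here. In whole larvae, a site held strongly in few cells and a site held weakly in many cannot be told apart.

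NHR-47 is a nuclear hormone receptor, a member of a family of zinc finger transcription factors that is greatly expanded in nematodes. Most C. elegans introns are very short, while long introns, often the first of a gene, are known to hold enhancers, internal promoters and genes for small noncoding RNAs. A peak in an intron can therefore sit at a regulatory element of the host gene, at the start of a shorter transcript or beside a nested RNA gene.

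The summit sequences of the strongest intronic peaks are shown first, since the short words shared by many of the peaks are counted further on. They are the summit base with 50 bp to each side, for the 8 strongest intronic peaks that lie on chromosomes whose sequence is printed here, and for another pair that are among the strongest to hold a fixed motif. Sequence is from the RefSeq copy of WBcel235, 5′ to 3′. Capitals mark the GA repeat GAGAGA and the CG-containing word GACGCA, or their reverse complements TCTCTC and TGCGTC, run together where they overlap.
Y111B2A.12, intron 4, chrIII:12612595-12612695, plus strand: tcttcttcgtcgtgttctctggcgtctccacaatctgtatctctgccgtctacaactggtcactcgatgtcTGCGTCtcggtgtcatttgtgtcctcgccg
pqn-41, intron 15, chrIII:1921384-1921484, plus strand: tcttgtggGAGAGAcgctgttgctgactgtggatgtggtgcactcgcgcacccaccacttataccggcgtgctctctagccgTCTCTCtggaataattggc
W06H8.6, intron 5, chrV:6224659-6224759, plus strand: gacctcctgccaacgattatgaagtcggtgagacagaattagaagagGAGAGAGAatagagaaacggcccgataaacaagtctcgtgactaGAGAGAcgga
dhc-4, intron 31, chrIII:10989603-10989703, plus strand: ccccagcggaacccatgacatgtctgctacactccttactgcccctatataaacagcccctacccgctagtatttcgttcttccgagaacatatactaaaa
epg-9, intron 2, chrIV:2602113-2602213, plus strand: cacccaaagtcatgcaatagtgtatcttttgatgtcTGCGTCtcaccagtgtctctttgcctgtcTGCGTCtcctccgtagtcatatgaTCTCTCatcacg
pqn-41, intron 15, chrIII:1925308-1925408, plus strand: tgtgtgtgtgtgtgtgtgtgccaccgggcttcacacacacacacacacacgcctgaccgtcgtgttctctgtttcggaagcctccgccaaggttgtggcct
Y56A3A.7, intron 3, chrIII:11946495-11946595, plus strand: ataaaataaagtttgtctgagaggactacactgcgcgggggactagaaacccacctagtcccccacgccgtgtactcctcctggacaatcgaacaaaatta
F58G1.7, intron 5, chrII:12944913-12945013, plus strand: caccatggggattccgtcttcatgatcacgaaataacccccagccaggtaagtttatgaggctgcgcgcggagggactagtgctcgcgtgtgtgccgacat
pqn-41, intron 15, chrIII:1926545-1926645, plus strand: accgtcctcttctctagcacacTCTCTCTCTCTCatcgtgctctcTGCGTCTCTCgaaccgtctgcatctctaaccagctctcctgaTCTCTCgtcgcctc
Y43F8B.2, intron 4, chrV:19529334-19529434, plus strand: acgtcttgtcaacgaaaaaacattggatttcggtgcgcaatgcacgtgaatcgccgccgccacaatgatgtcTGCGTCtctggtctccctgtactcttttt

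Of these 10 windows, those at W06H8.6, epg-9 and 2 of the 3 in pqn-41 held the GA repeat. The windows at Y111B2A.12, epg-9 and Y43F8B.2 and 1 of the 3 in pqn-41 held the CG-containing word, and epg-9 held it at 2 places. The dhc-4, Y56A3A.7 and F58G1.7 windows, and 1 window of pqn-41, held neither.

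Intronic regions entered the thresholded list less often than regions in general. The authors' pooled list held 7277 autosomal intronic regions, of which 910 (12.5%, Wilson interval 11.8 to 13.3%) were in the thresholded list. Over all 30000 pooled regions 17.9% were, and over autosomal promoter regions 36.5% (1782 of 4876). The autosomal intergenic share was 19.1%, the exonic share 4.08% and the share for introns of the X chromosome 9.91%. The signal value is the authors' own score of a peak. It was 76.99 and 77.04 for the weakest intronic peaks inside the list, and 76.87 and 76.74 for the strongest autosomal intronic regions outside it. Per length, there were 34.4 intronic peaks per Mb over 26.5 Mb of intron that could hold one (eligible intron), against 158 per Mb of promoter window and 55.2 per Mb of intergenic sequence. These are descriptions, since the study had 1 group and no test between classes of region was made.

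The intronic peaks were weaker than the promoter peaks. Their median signal was 130.6 (range 77.0 to 2264), against 216.9 at promoters and 135.8 between genes. To compare replicates, the signal of each replicate's own region at a peak was divided by that replicate's median over thresholded peaks found in both; this ratio is called relative signal below. The median relative signal of intronic peaks was 0.873 in replicate 1 and 0.830 in replicate 2, a mean of 0.851 ± 0.030 (SD, n = 2), against 1.378 ± 0.0037 (n = 2) at promoters. Intronic peaks were 10 and promoter peaks 53 of the 100 peaks of highest signal. Among the 1357 weakest peaks of the list, they were close in number, at 298 and 299. The median width was 420 bp for intronic peaks, against 342 bp for promoter peaks.

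Both replicates had a region at 907 of the 910 intronic peaks. The other 3, in ida-1, ulp-4 and F16C3.3, had one in replicate 2 only; these genes were named after their values were seen. Relative signal ran between 0.138 and 15.5 in replicate 1 and between 0.166 and 13.3 in replicate 2. It lay within 2-fold between replicates at 94.0% of the 907, against 96.5% of promoter peaks, and was over 2-fold higher in replicate 1 at 23 and in replicate 2 at 31. Across the 907 peaks, Pearson's r of the log2 values was 0.87 and Spearman's rho 0.791, as a description, since the peaks share 2 libraries and were chosen in part on both. With the replicate lists limited to their 5357 strongest regions, 78.02% of intronic peaks overlapped one in both replicates, against 87.3% of promoter peaks.

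**Figure D1:**
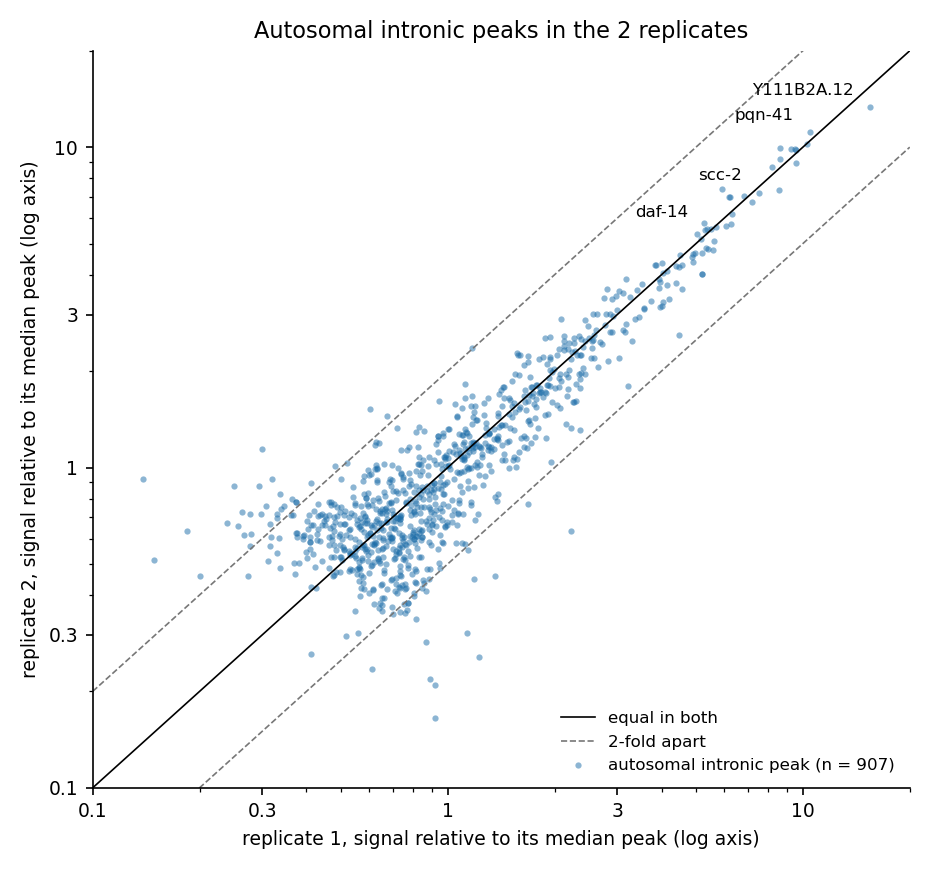
Relative signal of 907 autosomal intronic peaks in replicate 1 (x axis) and replicate 2 (y axis), both on log axes; each point is a peak, the solid line marks equal values and the dashed lines 2-fold. The strong peaks, such as Y111B2A.12 at 15.5 and 13.3, lie near the solid line, and the peaks over 2-fold apart are mostly weak.

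The 25 strongest intronic peaks lay in 20 genes, and their relative signal was between 5.26 and 15.5 in replicate 1 and between 5.53 and 13.3 in replicate 2. No peak of this set differed between replicates by more than 1.251-fold. The strongest was in intron 4 of Y111B2A.12 (III, 12612369 to 12613004), with a relative signal of 15.5 in replicate 1 and 13.3 in replicate 2. It was the peak of rank 24 in the whole list, and the only autosomal intronic one among the first 25. Its summit was 3356 bp downstream of the gene's 5′ end. In both replicates this site stood above every other intronic peak.

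The gene pqn-41, which encodes a protein with a glutamine-rich, prion-like domain, held 4 of the 25. Together with another, weaker peak they filled 5161 bp of a single intron, intron 15, which is 7770 bp long. From 5′ to 3′, relative signal in replicate 1 was 10.5, 3.18, 6.06, 8.605 and 8.557. In replicate 2 it was 11.2, 2.80, 5.68, 9.96 and 7.36. From strongest to weakest, the 5 sites stood in the same order in both replicates, although the pair nearest the 3′ end of the gene was nearly equal in replicate 1.

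Other hosts of the 25 strongest peaks differed in what they encode. In zfp-1, which encodes a PHD-finger chromatin protein, relative signal was 6.82 in replicate 1 and 7.04 in replicate 2, and in pbrm-1, a polybromo subunit of a SWI/SNF remodelling complex, 6.26 and 5.75. The peak in scc-2, the cohesin loader, reached 7.51 in replicate 1 and 7.20 in replicate 2. It lay 8312 bp into the gene, in intron 1 and near the start of a shorter scc-2 transcript. The MADS-box factor gene mef-2 had 5.36 and 5.56, and daf-14, which encodes a Smad of the dauer TGF-beta pathway, 5.30 and 5.53. Peaks in the kinase gene mnk-1 (6.22 and 7.01), in epg-9 for an autophagy protein (9.28 and 9.87) and in gei-4 (6.198 and 6.97) were of like size. The rest of the 25 lay in T28F4.1, W06H8.6, dhc-4, Y56A3A.7, F58G1.7, ppfr-1, ints-8, pxn-1, pcyt-2.1 and Y43F8B.2. Of the 25, 5 were in a first intron.

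The intronic peaks had 574 host genes, 3.58% of the 16013 autosomal protein-coding genes with eligible intron. Of the peaks, 901 had 1 host and 9 lay in 2 overlapping genes, which gave 919 pairs of peak and host. A single peak was held by 399 genes, 2 peaks by 95, 3 by 41 and 4 or more by 39. The 175 genes with 2 or more peaks thus held 520 of the 919 pairs. Hosts were rich in intron, with a median of 5066.5 bp of eligible intron, against 655 bp in other genes. A promoter peak was also present at 20.7% of hosts (Wilson interval 17.6 to 24.2%), against 12.8% of the other genes (1970 of 15439); the part that gene size has in this was not tested. The gene nhr-47 itself held 0 intronic peaks and 0 thresholded peaks of any class in its body. In unc-119, the gene that is mutant in this strain, 2 of 3 peaks were intronic, with relative signals of 2.37 and 0.817 in replicate 1 and 1.98 and 1.29 in replicate 2. Whether transgene copies add to these was not tested.

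The gene with the most intronic peaks was ppfr-1, for a regulatory subunit of protein phosphatase 4, with 10 peaks in introns 6 and 7. The strongest, 7025 bp from the gene's 5′ end, had 8.18 in replicate 1 and 8.67 in replicate 2, and the lowest were at 0.413 in replicate 1 and, at another site, 0.303 in replicate 2. Near the 3′ end of intron 7, a peak of 2.30 in replicate 1 and 1.61 in replicate 2 was beside the microRNA gene mir-2. Another, of 1.66 and 1.51, was beside mir-71. The MAP kinase phosphatase gene vhp-1 followed with 9 peaks spread over 5 of its 7 introns, from 0.613 to 2.27 in replicate 1 and from 0.430 to 2.45 in replicate 2. Y111B2A.12 held 8, of which the 7 beside the strongest were at most 2.31 in replicate 1 and 2.24 in replicate 2.

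The next 7 genes, with 7 peaks each, were let-526, daf-5, fkh-7, hlh-30, pkg-2, kin-1 and crh-1. The gene let-526 encodes an ARID subunit of SWI/SNF complexes, and its strongest intronic peak had 5.41 in replicate 1 and 4.80 in replicate 2. For daf-5, the Sno/Ski partner of Smads in dauer signalling, the strongest had 5.22 and 4.03, deep in a first intron of 14446 bp. In fkh-7, a forkhead factor gene, and hlh-30, the worm TFEB, no peak passed 2.22 in either replicate. The kinase genes pkg-2 (cGMP-dependent) and kin-1 (the catalytic subunit of protein kinase A) reached at most 1.86 and 1.53 in replicate 1 and 2.22 and 1.44 in replicate 2. In crh-1, the worm CREB, all 7 were in a first intron of 16856 bp and were weak in both replicates, from 0.498 to 0.949 in replicate 1 and from 0.487 to 0.769 in replicate 2. A high number of peaks thus occurred both with strong sites, as in ppfr-1, and with weak sites only, as in crh-1.

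**Figure D2:**
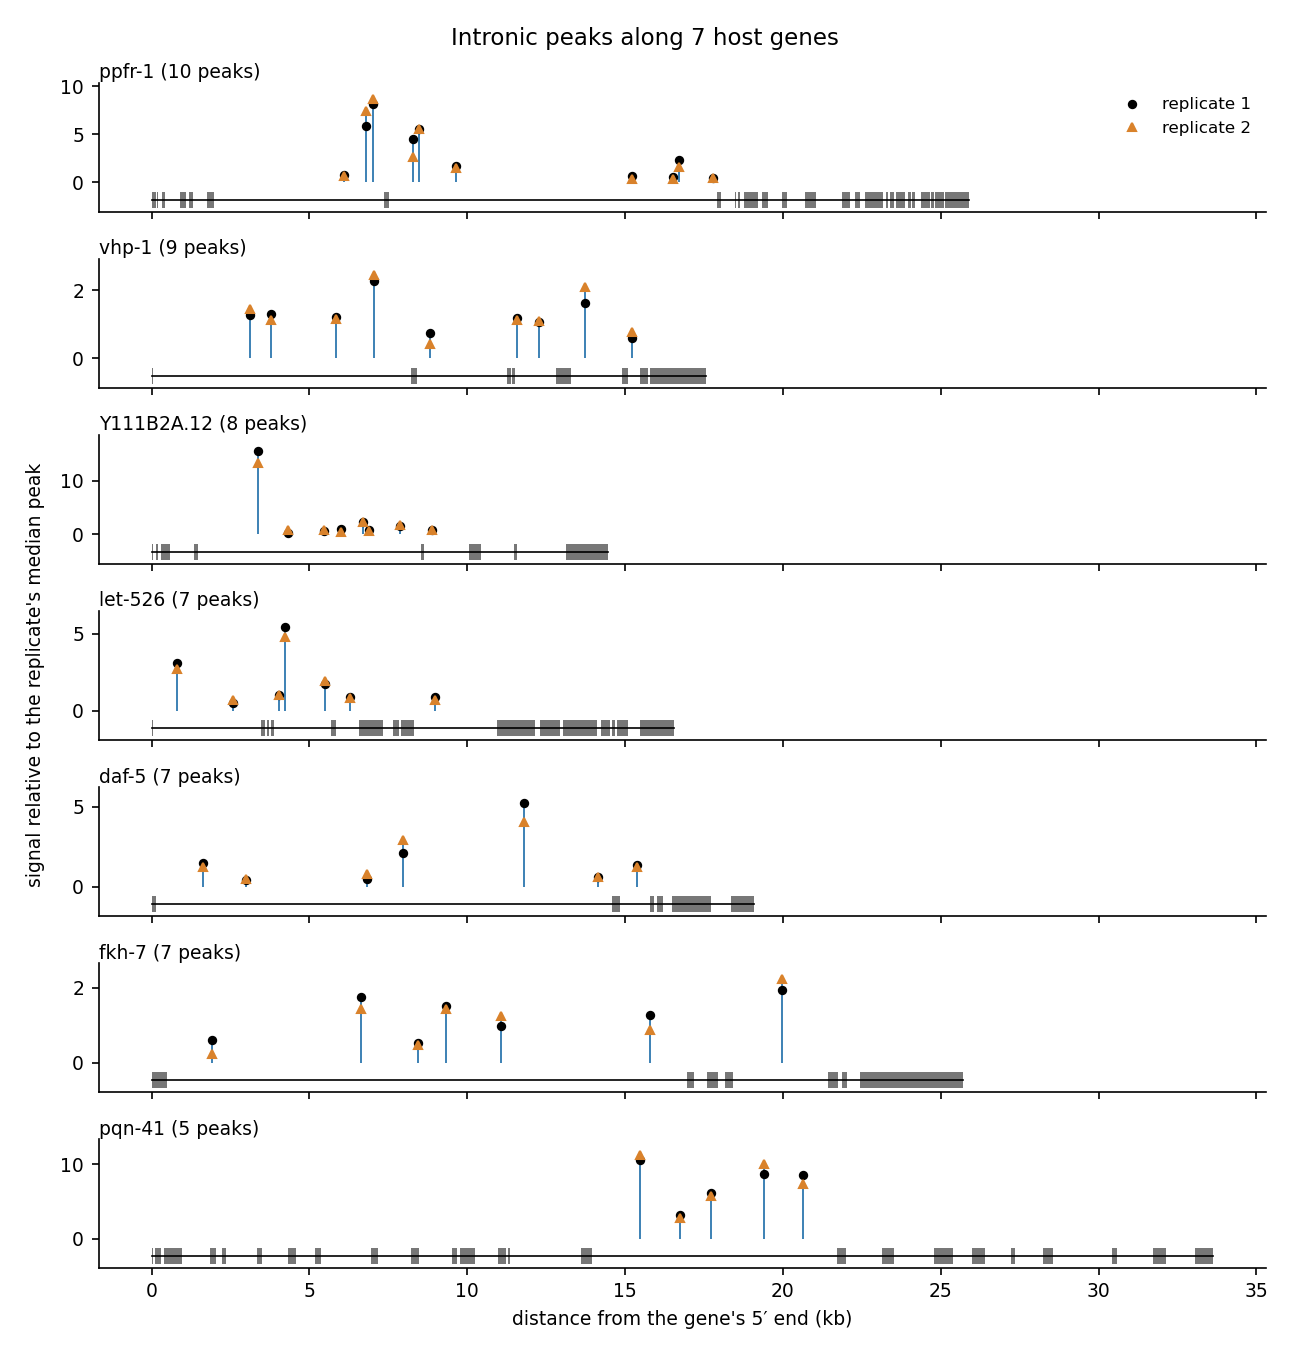
Intronic peaks along 7 host genes, with distance from the gene's 5′ end in kb on the x axis and relative signal on the y axis, whose scale differs between genes; circles are replicate 1, triangles replicate 2, grey boxes exons of any protein-coding transcript. Peaks were spread over several introns in vhp-1 and packed into 1 intron in pqn-41.

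Peak density went up with intron length. Introns under 500 bp held 13.6 intronic peaks per Mb of eligible intron, those from 2000 bp to under 5000 bp 63.04 per Mb, and those of 10000 bp and over 92.6 per Mb. In the replicate lists, limited to 5357 regions each, the shortest class had 13.5 per Mb in replicate 1 and 14.2 per Mb in replicate 2, and the longest 91.4 and 92.6. Every step up in length class was a step up in density, in the thresholded list and in both replicate lists. A peak was present in 0.162% of introns under 500 bp and in 40.6% of the 69 introns of 10000 bp and over. The median host intron was 2693.5 bp long, against 79 bp over all 79797 eligible introns. The signal did not go the same way as the density, with a median of 173 in introns under 500 bp and 124 in those of 10000 bp and over.

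First introns held 338 of the 919 pairs (36.8%, Wilson interval 33.7 to 39.9%) on 20.99% of the eligible length. Their density was 59.8 peaks per Mb, against 27.3 per Mb in later introns, a ratio of 2.19 (2.00 in the replicate 1 list and 2.25 in the replicate 2 list). The second introns had 28.8 per Mb, the third 25.8 and the introns after them 27.2, so no gradient followed the first intron. First introns are longer than later ones, so the ratio was taken within length classes. It was 2.15 in introns under 2000 bp (1.98 in replicate 1 and 2.33 in replicate 2) and 1.51 in introns of 2000 bp and over (1.39 and 1.52). The ratio of first to later introns was thus smaller among long introns in the thresholded list and in both replicate lists. The densities themselves were 94.1 per Mb in first and 62.2 per Mb in later introns of 2000 bp and over, and 34.9 and 16.2 per Mb in those under 2000 bp, so the difference in density was larger among long introns. Summits lay a median of 3507 bp from the 5′ end of the gene, and 134 of the 910 (14.7%) were over 10000 bp away, up to 40160 bp.

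**Figure D3:**
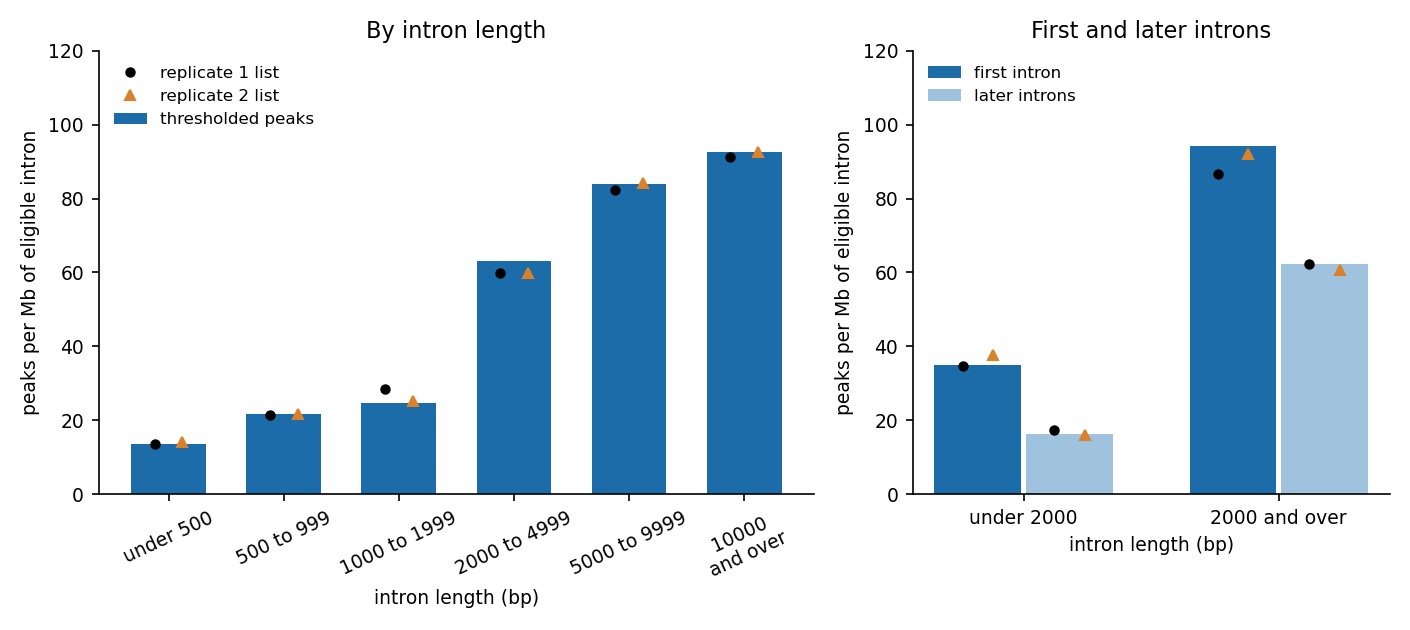
Intronic peaks per Mb of eligible intron by intron length (left) and in first and later introns of 2 length classes (right); bars are the thresholded list, circles the replicate 1 list and triangles the replicate 2 list. Density runs from 13.6 to 92.6 per Mb over the length classes, and first introns exceed later ones in both classes.

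Along the chromosomes, density was 39.4 per Mb on II, 39.3 on III and 39.4 on IV, with 30.6 on chromosome I and 25.1 on V. In the replicate lists the values for I and V stayed between 24.5 and 31.2 and those for the other 3 between 36.9 and 41.3. The central 50% of the chromosomes held 61.6% of the intronic peaks and 43.2% of the eligible intron.

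Some intronic summits lay at annotated starts other than the gene's 5′ end. The start of a shorter protein-coding transcript was within the window at 169 of the 910 (18.6%, Wilson interval 16.2 to 21.2%), while these windows covered 6.60% of eligible intron. The share over length was 2.82-fold (2.65 in replicate 1 and 2.87 in replicate 2). Beside scc-2, the strongest such peaks were in pcyt-2.1, for an enzyme of phosphatidylethanolamine synthesis, and in drap-1, whose values were 5.58 in replicate 1 and 4.79 in replicate 2. Median signal was 133 at these peaks and 129.5 at the other intronic peaks.

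Starts of small RNA genes showed a larger ratio. Windows of genes annotated as snRNA, snoRNA or miRNA covered 0.533% of eligible intron and held 68 intronic peaks (7.47%, Wilson interval 5.94 to 9.37%), 14.02-fold their share of length (13.8 in replicate 1 and 14.1 in replicate 2). These peaks were strong, with a median signal of 294, against 126 at the other intronic peaks. They were 22 of the 100 strongest intronic peaks, and 8 of the 310 weakest. They were also 33 of the intronic peaks whose intron was under 500 bp (32.04%), against 35 of the 807 in longer introns (4.34%). Neither a shorter transcript's start nor a small RNA start was present at 683 of the 910 peaks (75.1%). Both were present at 10 peaks, among them the strongest peak in pcyt-2.1, which is therefore named for both.

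By class, snoRNA genes, whose RNAs guide the modification of ribosomal RNA and are often encoded in introns, had 39 peaks on 0.284% of eligible intron (15.1-fold). Of these summits 33 lay upstream of the snoRNA's start, and 35 were within 100 bp of it. The median position over all 39 was 42 bp upstream. The strongest was beside ZK994.7 in the peroxidasin gene pxn-1, with 6.33 in replicate 1 and 6.17 in replicate 2, and the next beside Y37E3.20 in pcyt-2.1 had 5.70 and 5.65. Genes annotated as snRNA had 16 peaks on 0.111% (15.8-fold), of which 12 were within 100 bp of the start. The strongest, beside R07E5.16 in intron 31 of the dynein heavy chain gene dhc-4, had 9.47 in replicate 1 and 9.87 in replicate 2. Weaker ones were beside sls-2 genes, which encode the spliced leader SL2 RNA of trans-splicing.

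The miRNA genes had 13 peaks on 0.139% (10.3-fold; 8.67 in replicate 1 and 9.54 in replicate 2), with summits at a median of 265 bp upstream of the annotated start. Beside those in ppfr-1, they included a peak at mir-90 in K01F9.2 (2.58 in replicate 1 and 2.59 in replicate 2) and a peak at mir-58a in Y67D8A.2 (1.44 and 1.79). The peak beside lin-4, the founding microRNA of developmental timing, was weak, with 0.392 in replicate 1 and 0.612 in replicate 2; these examples were chosen after their values were seen. The large Ensembl class of other noncoding RNAs (ncRNA) had 118 peaks, 13.0% on 3.84% of length. One of these, at 7.21 in replicate 1 and 6.75 in replicate 2, was beside rpr-1, the RNA of RNase P, in an intron of ints-8, an Integrator subunit gene. The piRNA genes went the other way, with 20 peaks, 2.20% on 4.33% of length.

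A set of 16 short sequences was sought on both strands at the summit base and 50 bp to each side. They were chosen with earlier results of these data known, so their shares at these summits are descriptions only. The GA repeat GAGAGA was the most frequent. It was in 243 of the 910 intronic peaks (26.7%, Wilson interval 23.9 to 29.7%), against 6.43% of windows of the same size 300 bp to either side and 4.34% of 203958 windows tiled over eligible intron. The share was 29.1% in the replicate 1 list and 28.1% in the replicate 2 list. At promoter peaks of the thresholded list it was 19.98% and at intergenic peaks 33.0%, so the intronic share of that list lay between them. No test between these classes was made. With the intronic peaks divided into 4 groups by signal, the share was 34.6, 28.2, 24.2 and 19.7% from the strongest group to the weakest.

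The CG-containing word GACGCA was in 115 intronic peaks (12.6%, Wilson interval 10.6 to 14.95%), against 1.81% of flanking windows and 2.02% of tiled windows. It was in 17.7% of promoter peaks and 16.3% of intergenic peaks. Its share was 18.4% in the strongest of the 4 signal groups and 6.14% in the weakest. The bases around it were not free. Of its 120 occurrences at intronic summits, 85.0% had A directly before it and 85.0% had G directly after, where the tiled windows had 53.2% and 45.5%. The longer word AGACGCAG, chosen after these bases were seen, was in 93 intronic peaks (10.2%), against 0.495% of flanking windows and 0.752% of tiled windows. It was also in 9.71% of promoter peaks and 13.0% of intergenic peaks. The Y111B2A.12, epg-9 and Y43F8B.2 windows printed above, and the pqn-41 window with GACGCA, each hold its reverse complement, in the stretch around the capitals. The GA repeat and GACGCA, which can overlap by 2 bases, occurred together in 59 peaks, and either was in 299 (32.9%), against 8.02% of flanking windows.

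The E-box CACGTG, the word of many basic helix-loop-helix factors, was in 73 intronic peaks (8.02%, Wilson interval 6.43 to 9.97%). The share was 6.59% in the replicate 1 list and 7.96% in the replicate 2 list. It was 3.82% at promoter peaks, 5.85% at intergenic peaks (Wilson interval 4.69 to 7.27%) and 2.53% in flanking windows. The half-site AGGTCA, the word recognised by many nuclear receptors, was in 24 (2.64%), beside 2.80% of flanking windows, and its variant AAGTCA in 34 (3.74%), beside 5.44%. The GATA word TGATAA was in 6.81%, beside 7.91% of flanking windows, and a run of 8 T in 4.73%, against 12.7%. Ratios to the flanking windows were 1.26 for the E-box CAGCTG, 0.719 for the homeodomain core TAATTA, 1.26 for the forkhead word GTAAACA and 1.49 for the cAMP response element TGACGT. They were 1.88 for the AP-1 word TGACTCA, 2.05 for the GC box GGGCGG, 1.89 for the E2F core GCGGGAA, 2.0 for the Hox-Exd core TGATTAAT (7 peaks) and 1.42 for the T-box core AGGTGT. Set against the tiled intron windows instead, GCGGGAA was no more frequent, at 1.98% of intronic peaks (18 peaks) and 2.02% of tiled windows. AGGTCA was in 2.27% of tiled windows. The GC content was 44.6% on average at the intronic summits (SD 8.41 over 910 peaks), against 36.7% and 35.6% in the flanks and 32.8% in the tiled windows. Promoter and intergenic summits were alike in this, at 45.0% and 43.7%. The part of GC content in these shares was not tested. A match is a sequence match only and not a measured contact.

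**Figure D4:**
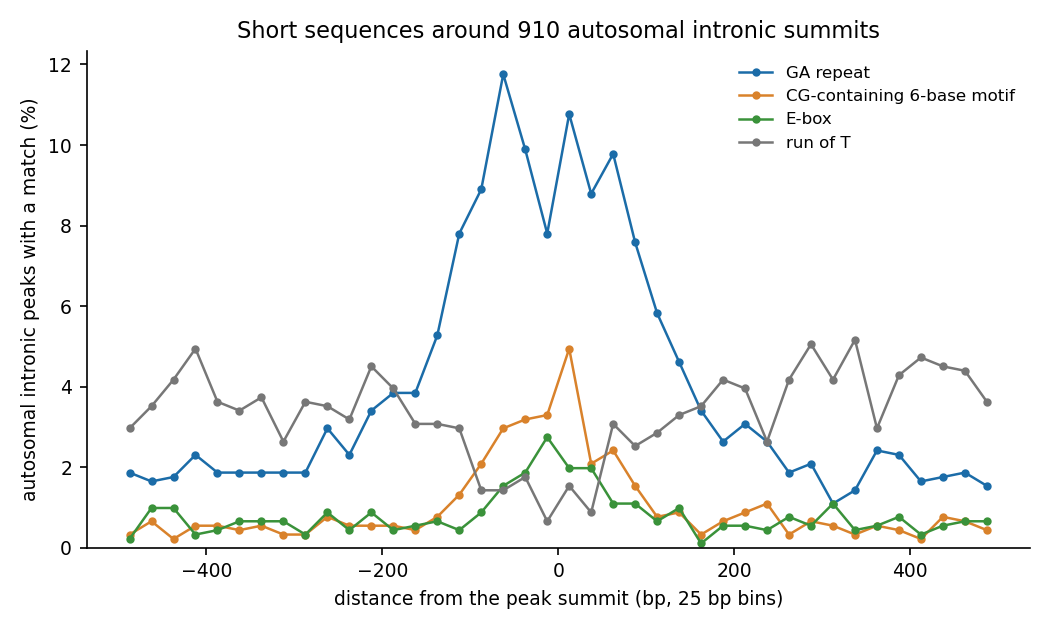
Share of the 910 autosomal intronic peaks with a match to 4 short sequences in 25 bp bins, by distance from the summit in bp. The GA repeat reaches 11.8% of peaks per bin within 75 bp of the summit, the CG-containing word peaks at 4.95% just beside the summit, and the run of T is least frequent at the centre.

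Density differed widely between gene lists, which were built from gene symbols and are not complete: mef-2, mnk-1, pkg-2 and let-526, described above, are in none of them. Densities, shares and strongest hosts below are those of the listed genes only. Over all genes, density was 34.1 pairs of peak and host per Mb of eligible intron. Of the 14 lists, 7 lay above and 7 below, each on the same side in both replicate lists. The listed transcription factors outside the homeodomain and nuclear receptor families had 118 per Mb (131 in replicate 1 and 110 in replicate 2), with 20 of 103 genes as hosts (19.4%, beside 3.58% of all genes). The strongest peaks within this list were in the bZIP genes zip-2 (3.93 in replicate 1 and 3.63 in replicate 2), skn-1, the worm Nrf (2.87 and 2.65), and zip-4 (2.19 and 2.34), and in the FOXO gene daf-16 (2.58 and 2.20). The list of Wnt, TGF-beta, Ras, Notch and insulin signalling had 97.8 per Mb, with 13 of 65 genes as hosts, led by daf-14, daf-5, the ERK gene mpk-1 (2.78 and 2.79) and daf-16, which is in both lists. The listed genes for protein kinases and second messengers had 96.4 per Mb, with 24 of 114 genes as hosts. The list was led by the phosphatase gene vhp-1, kin-4 (2.19 and 2.02), the calcineurin gene tax-6 (1.94 and 2.18) and gpa-1 (2.00 and 1.77).

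The genes of NHR-47's own family, the nuclear hormone receptors, had 67.7 per Mb (64.8 in each replicate list), with 14 of 247 genes as hosts (5.67%, Wilson interval 3.41 to 9.29%). That interval includes the 3.58% of all genes. The strongest peak of the family was in intron 2 of nhr-19, with 5.196 in replicate 1 and 4.69 in replicate 2. Those in nhr-46 (3.22 and 1.80), nhr-31 (1.60 and 2.25) and nhr-10 (1.78 and 1.81) were next, and the nhr-46 replicates were the least alike of the 4. Chromatin factors had 81.8 per Mb, with 9 of 91 listed genes as hosts, and within the list zfp-1 and pbrm-1 were followed by nurf-1 (2.76 and 3.38) and set-18 (2.13 and 2.49). Synaptic genes had 43.5 per Mb, with 11 of 58 genes, led by the synaptotagmin genes snt-3 (2.30 and 1.82), snt-4 (1.67 and 1.15) and snt-2 (1.18 and 1.15) and by syd-1 (1.27 and 1.59). Translation factors and ribosomal proteins had 107 per Mb, but from 4 peaks on 0.0373 Mb, in eif-2Bdelta, rpl-19, eif-3.I and eif-2beta. By share of genes they were close to all genes, with 4 of 104 as hosts (3.85%, Wilson interval 1.51 to 9.47%, beside 3.58%).

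The remaining 7 lists were below all genes in density, but not all of them in the share of genes that were hosts. Against 3.58% of all genes, that share was 6.85% for axon guidance, adhesion and matrix genes and 6.38% for muscle structure genes. It was 5.21% for the listed RNA-binding and splicing factors and 4.90% for ion channels and gap junctions. It was 3.03% for the listed homeodomain factors, 1.34% for the cuticle list and 0.477% for chemoreceptor genes. The listed homeodomain factors had 12.6 per Mb, with 2 of 66 genes as hosts, lin-11 (0.480 in replicate 1 and 1.01 in replicate 2) and unc-42 (0.676 and 0.675). The host unc-62 (0.840 and 0.680) also encodes a homeodomain factor but is not in this list. The low share is therefore not that of the whole family. Ion channels and gap junctions had 19.8 per Mb (15.8 in replicate 1 and 13.2 in replicate 2), with inx-11 (2.91 and 3.36), twk-5, glr-2 and trpa-1 the strongest of 10 hosts among 204 genes. Axon guidance, adhesion and matrix genes had 13.5 per Mb (20.3 in replicate 1 and 18.6 in replicate 2). Their eligible intron, summed over each gene, had a median of 4514 bp, the largest of the 14 lists. Among their hosts, hmr-1, a cadherin gene, had 1.45 and 1.36, and vab-10, unc-73 and casy-1 were lower. Muscle structure genes had 10.8 per Mb (18.01 in replicate 1 and 7.20 in replicate 2), with lev-11 (tropomyosin), unc-89 and unc-15 as the 3 hosts, all at or below 1.06. The cuticle list had 16.6 per Mb (16.6 in replicate 1 and 24.95 in replicate 2) from 2 peaks, in rol-3 (3.17 and 3.87) and col-72 (2.50 and 2.54). Of these, rol-3 encodes a receptor tyrosine kinase and not a cuticle component. The cuticlin-like gene cutl-18, a host with 1.73 and 1.78, is not in the list. Chemoreceptor genes had the lowest density, 8.43 per Mb, with 6 hosts among 1257 genes, led by srt-52 (1.199 and 1.19), srh-2, sre-13 and srv-15. The listed RNA-binding and splicing factors were close to all genes, at 30.7 per Mb. The strongest peaks within the list were in the heterochronic gene lin-28 (3.74 and 3.32), larp-1 (3.36 and 2.91), rbm-34 and the Argonaute gene alg-2. The list leaves out hosts of this kind, among them nova-1 (3.56 and 3.11) and the splicing factor gene smu-1 with 4 peaks. Its density is therefore not that of the whole class. Lists with few peaks have wide intervals, and a share above or below that of all genes was not tested.

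**Figure D5:**
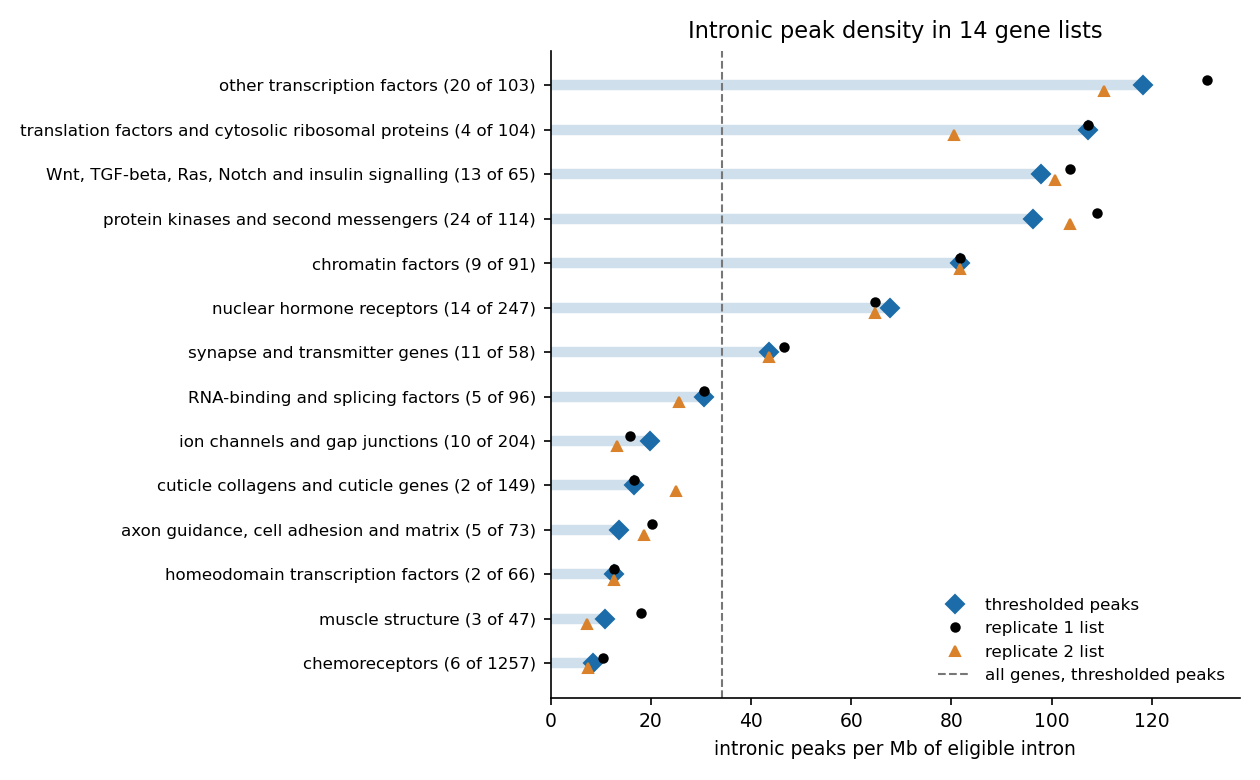
Intronic peaks per Mb of eligible intron in 14 gene lists, with hosts and genes with eligible intron in brackets; diamonds are the thresholded list, circles the replicate 1 list, triangles the replicate 2 list and the dashed line all genes at 34.1 per Mb. Transcription factors outside the homeodomain and nuclear receptor families lie at the top at 118 per Mb, and chemoreceptors at the bottom at 8.43 per Mb.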

How the data were processed

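ChIP-seq of tagged NHR-47 in 2 biological replicates was analysed from region lists on ce11. Per the submitters' file index, the authors deposited lists of 30000 regions for each replicate and for both pooled, as input for the irreproducible discovery rate, and an optimal thresholded list of the pooled data. Column 7 of the deposited lists is the authors' peak caller's signal score, column 9 their −log10 q value and column 10 the summit offset, which is of another kind than a score; per the file headers no further unit is named. Not given in the sources used here are the aligner and the caller. Read totals were not used, so depth is unknown, and intervals cover counting error only. The labels call the antibody nhr-47 in 1 field and anti-GFP in another.

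Summits were classed with the Ensembl release 115 annotation of WBcel235 (Python 3.11.15, pandas and numpy). An intron was a gap in the union of a gene's protein-coding exons. A replicate value was the signal of the overlapping region (at least 1 bp) with the nearest summit, and 4 intronic peaks in replicate 1 and 6 in replicate 2 shared such a region with another. The steps were tested on simulated positions.

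The members, gene lists and motifs were chosen with earlier results of these data known. Genes named are the hosts of the 25 strongest peaks, the 10 genes with most peaks, up to 4 hosts for each list, nhr-47 and unc-119; others are marked as chosen later or serve as examples of a class. With 1 group and 2 replicates no test was run. The alternatives tried were each replicate alone, the stronger 2678 peaks, midpoints, other windows and exon sets, other intron definitions, each interval once and other motif windows.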

Additional observations from a re-analysis of the deposited data

How the results depend on the processing

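With replicate 2 left out, and with replicate 1 left out, the number of intronic peaks was between 904 and 911, their share of the list between 16.88 and 17.01%, and their host genes between 570 and 577. Their median signal over that of promoter peaks was between 0.619 and 0.647, against 0.602 in the pooled list. The first-intron share was between 34.7 and 37.4%, the first to later density ratio between 2.00 and 2.25, and the share at another transcript start between 17.5 and 18.9%. The GA repeat was in 28.1 to 29.1%, the CG-containing word in 13.0 to 13.4%, the E-box in 6.59 to 7.96% and the run of T in 4.98 to 5.16%. The stronger 2678 peaks held 371 intronic peaks (13.9%) in 279 genes, at 0.809 of the promoter median; the 2 counts are lower in part because fewer peaks were used. A wider promoter window, reaching 1000 bp up and 500 bp down, gave a share of 15.4%, windows at all protein-coding transcript starts 13.8%, and exons of every gene biotype 15.5%. In introns of the longest transcript the first-intron share was 34.4% and the density ratio 1.95. The narrow window, 200 bp upstream to 100 bp downstream, held 8.13% at another start. With 25 bp and with 100 bp to each side of the summit, the GA repeat was in 15.2% and 45.3%, the CG-containing word in 7.14% and 19.2%, the E-box in 4.51% and 11.8% and the run of T in 2.09% and 11.9%. These changes follow from the size of the window; the cause of the others was not tested. Leaving out each replicate for the motifs, transcript starts and gene lists was chosen after seeing the data. The depth of the libraries is unknown, so weak sites that were missed cannot be counted. No paired analysis was possible because there is 1 group.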
